A study of Mus musculus with 15 samples.

Results

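The genes described here are the alpha globin gene Hba-a1, the transcription factor genes Klf1, Gata1, Gata2, Tal1, Lmo2 and Nfe2, and the heme synthesis genes Alad and Urod. They were chosen by name as globin, erythroid factor and heme synthesis genes, and Hba-a1 also because its signal was higher with Stat5 siRNA at both times. All 9 were on the arrays, out of 15964 genes that had a probe set with 1 gene symbol. They were read by 15 probe sets, and another 2 probe sets named Hba-a1 together with its neighbour Hba-a2. A probe set is a group of short oligonucleotides on the array meant to read 1 transcript, though some can read transcripts of several genes.

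RNA came from Ba/F3-beta cells, a mouse blood cell line that depends on the cytokine IL-3 and is usually described as pro-B. There were 5 conditions. Cells transfected with a control siRNA (scramble I) were left unstimulated, or received IL-3 for 30 min or for 2 h. Cells transfected with Stat5A and Stat5B siRNAs together received IL-3 for the same times. Stat5a and Stat5b encode transcription factors that are activated at the IL-3 receptor, and the series was designed to find the genes IL-3 induces through them. None of the samples was of Stat5 siRNA cells without IL-3, so the siRNA groups can be compared only in stimulated cells. RNA of each condition was hybridised once to each of 3 Affymetrix mouse array designs, U74A, U74B and U74C, which gave 15 arrays. No condition had a replicate, so there is no test and no p-value, and precision is limited by the number of arrays.

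In red cell development GATA2 and GATA1 act in sequence, with GATA2 in progenitors and GATA1 in maturing erythroid cells. GATA1 works in a complex with TAL1 and LMO2. It acts together with KLF1, which binds CACCC boxes in globin and other red cell genes, and with NFE2, the erythroid subunit of a dimer that binds the globin control regions. Hemoglobin needs heme as well as globin chains, and ALAD and UROD catalyse an early and a later step of heme synthesis in the cytosol. The same GATA, TAL1 and LMO2 factors are also used by mast cells, megakaryocytes and blood stem cells, and cell lines that grow in IL-3 often express some of them.

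The sequence before the start of Hba-a1 and of Klf1 is shown because these were the only members past 2-fold in any comparison. Both come from RefSeq (build GRCm38.p6) and hold the 250 bases before the annotated start, on the + strand. The Hba-a1 stretch is chr11:32283422-32283671 and the Klf1 stretch is chr8:84901732-84901981. Capitals mark the GATA-type motif TGATAA or its reverse complement TTATCA.
Hba-a1: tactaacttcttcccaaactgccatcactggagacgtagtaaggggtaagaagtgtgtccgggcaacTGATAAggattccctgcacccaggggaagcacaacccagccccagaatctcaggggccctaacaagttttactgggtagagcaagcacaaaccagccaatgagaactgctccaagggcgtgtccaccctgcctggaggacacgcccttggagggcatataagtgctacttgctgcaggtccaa
Klf1: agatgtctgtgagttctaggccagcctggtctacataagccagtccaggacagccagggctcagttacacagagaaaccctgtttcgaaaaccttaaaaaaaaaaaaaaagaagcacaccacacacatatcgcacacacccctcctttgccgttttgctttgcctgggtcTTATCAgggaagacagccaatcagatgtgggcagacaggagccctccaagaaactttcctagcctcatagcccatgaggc
Each held 1 TGATAA match, 183 bases before the start for Hba-a1 and 80 bases for Klf1, read from the first base of the match. Of 32851 entries of the same length 7.94% held TGATAA on either strand. Neither stretch held AGATAA (in 9.99% of entries), CCACACCC (3.2%), CCGCCC (32.7%), TGACTCA (the reverse complement of TGAGTCA, so searched as the same motif, 4.46%) or the STAT-type TTCNNNGAA (7.02%). The shorter CACCC was not searched for, and those letters occur in both stretches. Each held 1 match of the E-box CANNTG, as 66.2% of entries did. Of the members with an entry, 7 of 9, only Tal1 held AGATAA, in 1 of its entries, and none held TTCNNNGAA. The Hba-a2 stretch shared an unbroken run of 247 of the 250 bases with Hba-a1. A match is a description of letters and not of binding.

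Alpha globin was higher in Stat5 siRNA cells and flat with IL-3. The Hba-a1 probe set 94781_at had a signal of 467 without IL-3, 471 after 30 min and 447 after 2 h in control siRNA cells, and of 1102 at 30 min and 1172 at 2 h in Stat5 siRNA cells. The 3 control arrays thus lay within a narrow band, and both Stat5 siRNA arrays lay above all of them. Signals are linear values from the MAS5 algorithm, scaled to a common trimmed mean, and a floor of 119.9 separates probe sets counted as measured from those that are not. The difference from control siRNA was 2.34-fold at 30 min (log2 ratio 1.23) and 2.62-fold at 2 h (1.39). For scale, the SD of 1 log2 ratio between probe sets of the same gene on U74A was 0.22 in the comparison at 30 min and 0.24 at 2 h. This SD compares probe sets read on the same arrays, so a shift common to a whole array cancels. It holds no difference between cultures. Of 8124 genes measured at 30 min 15 had a ratio at least as high as that of Hba-a1, and of 8132 at 2 h 12 did, itself included. These siRNA ratios chose the gene and are given as a description. With IL-3 alone the ratios of Hba-a1 were 0.01 at 30 min and -0.06 at 2 h.

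**Figure D1:**
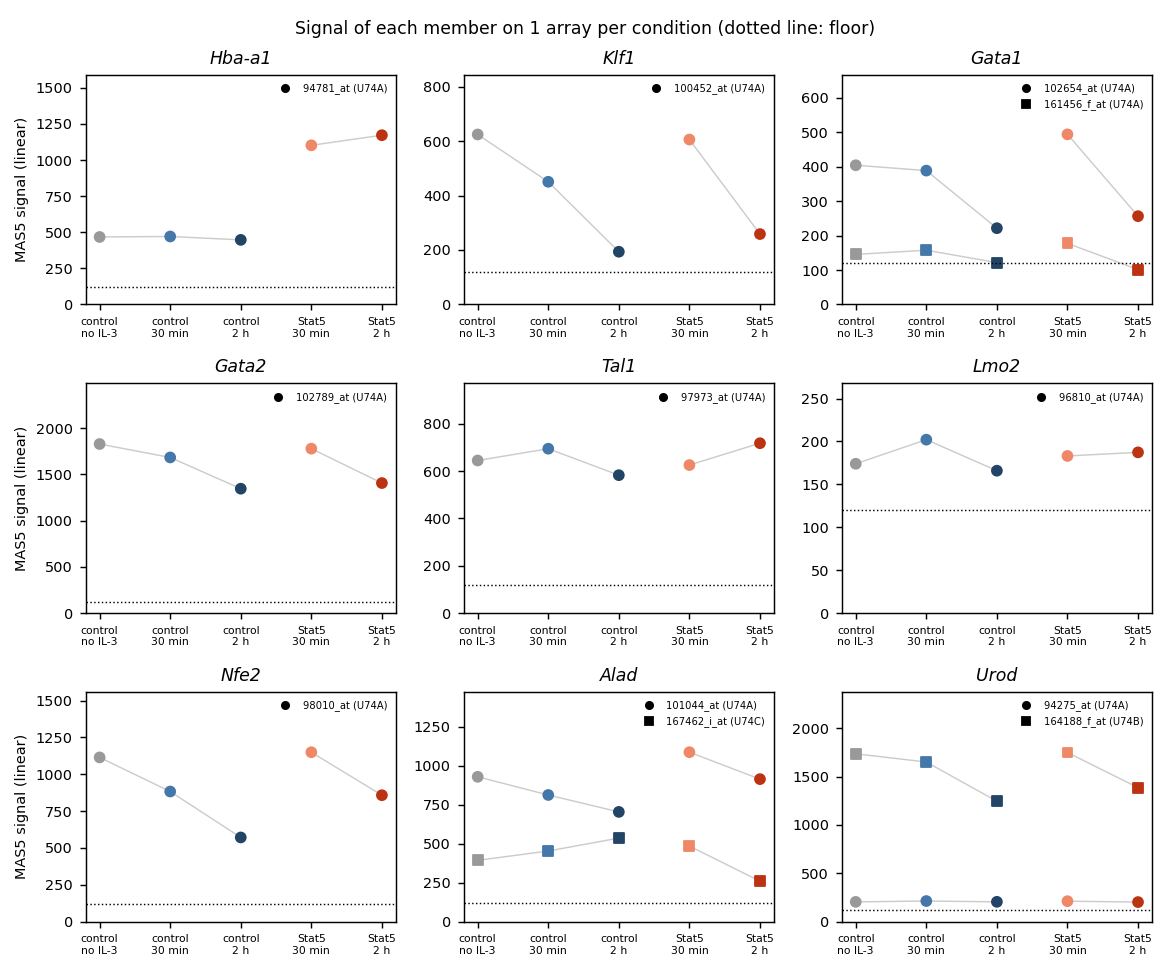
MAS5 signal (linear, y axis) of the 9 members on the array of each condition (x axis), 1 point per array, for every probe set that reached the floor (dotted line) on at least 1 array; lines join arrays of the same siRNA. Hba-a1 stood at 447 to 471 on the 3 control arrays and at 1102 and 1172 with Stat5 siRNA. Klf1, Nfe2 and the brighter Gata1 probe set had their lowest signal in control siRNA cells after 2 h of IL-3. The dimmer Gata1 probe set was lowest with Stat5 siRNA at 2 h.

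The size of the alpha globin difference depended on the probe set. The U74A probe set 162457_f_at, which names Hba-a1 and Hba-a2 together and is of a kind that can cross-hybridise, read 189 without IL-3, 214 at 30 min and 197 at 2 h with control siRNA, and 297 at 30 min and 299 at 2 h with Stat5 siRNA. Its Stat5 siRNA arrays again lay above all 3 control arrays, but by 1.39-fold at 30 min and 1.52-fold at 2 h. The other such probe set, 170940_at on U74C, stayed under the floor on all 5 arrays, between 26.3 and 36.2. When these probe sets were counted as Hba-a1, a choice made after seeing the data, the median log2 ratio became 0.85 at 30 min and 0.996 at 2 h, under 2-fold at both times. Hba-a1 and Hba-a2 are near-identical copies, so which of them the signal came from is uncertain.

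The other alpha and beta globin probe sets that reached the floor were higher with Stat5 siRNA as well. Hbb-b2 and Hba-ps3 reached it only on the Stat5 siRNA arrays, so the floor fixed their direction. A probe set that names the adult beta globin genes jointly (101869_s_at) had 384 without IL-3, 393 at 30 min and 414 at 2 h with control siRNA, against 692 at 30 min and 950 at 2 h with Stat5 siRNA. That was 1.76-fold higher at 30 min and 2.29-fold at 2 h, the latter past 2-fold, as were 0.631% of the 13308 probe sets measured in that comparison. The second probe set of these genes (160560_at) read at most 3.42 on any array. The embryonic beta-like gene Hbb-y had 112, 127 and 109 on the control arrays, in the order without IL-3, 30 min and 2 h, and 194 and 236 with Stat5 siRNA, on a probe set that can cross-hybridise. Its ratio was 0.62 at 30 min and 0.97 or more at 2 h, where the control array was under the floor. Hbb-b2 reached the floor only with Stat5 siRNA, at 160 and 175 against 103 and 96.6 with control siRNA, a log2 ratio of 0.42 or more at 30 min and 0.55 or more at 2 h. A pseudogene probe set, Hba-ps3, did the same at 146 and 135 against 104 and 86.9. The embryonic genes Hba-x and Hbb-bh1 stayed under the floor on every array. Among globin probe sets under the floor the directions were mixed. The alpha globin probe set 170940_at read 36.2 and 36.0 with control siRNA at 30 min and 2 h, against 27.4 and 28.65 with Stat5 siRNA. A second Hbb-y probe set read 53.9 and 38.8 against 66.2 and 101. Globin genes resemble each other in sequence, and how far 1 transcript fed several of these probe sets was not tested. Of the 14 globin-family symbols other than Hba-a1 on the list used, 7 had a probe set of their own and 4 were measured in each siRNA comparison. None of these 4 was 2-fold higher, although the Hbb-y ratio at 2 h is a lower bound. At 2 h 1 of them passed 2-fold with median scaling, and also when low signals were left below the floor. The remaining pair, Ngb and Cygb, are expressed outside red cells and had ratios from -0.32 to 0.21.

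**Figure D2:**
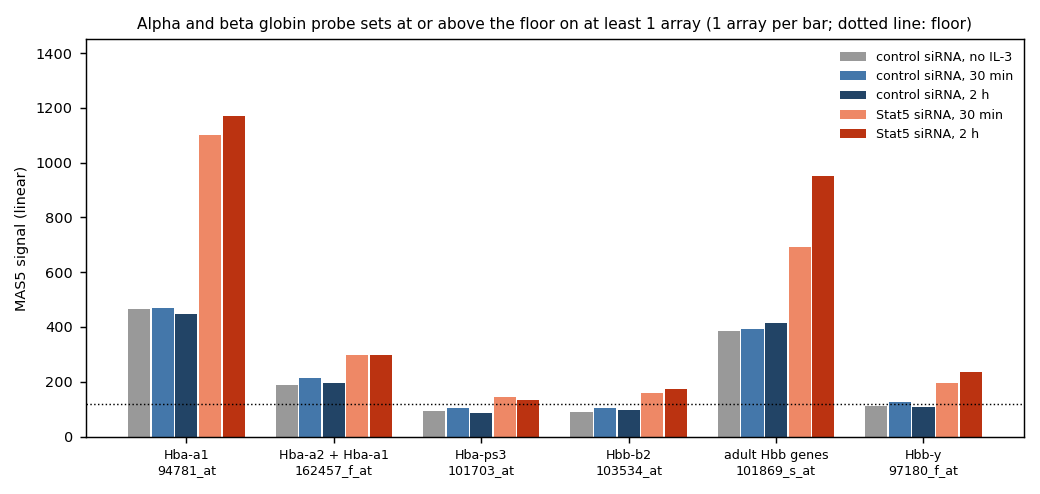
MAS5 signal (linear, y axis) of the 6 alpha and beta globin family probe sets that reached the floor (dotted line) on at least 1 array; each bar is 1 array and colours give the condition. In each probe set both Stat5 siRNA bars are above the 3 control siRNA bars, by 2.34-fold and 2.62-fold for Hba-a1 at the matched times and by less in the others. Hbb-b2 and Hba-ps3 reached the floor only with Stat5 siRNA, so this order was fixed for them.

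Of the 6 transcription factor genes among the members, Klf1 had the lowest ratio after 2 h of IL-3. KLF1 is the zinc finger activator of adult beta globin and of many red cell genes. Its probe set had a signal of 624 without IL-3, 450 after 30 min and 194 after 2 h with control siRNA, and of 605 at 30 min and 258 at 2 h with Stat5 siRNA. The signals at 2 h were the lowest in both siRNA groups. After 2 h Klf1 was 3.22-fold lower than without IL-3 (log2 ratio -1.69, against an SD of 0.23 between probe sets), and 19 of 8294 genes, itself included, had a ratio as low. At 30 min the ratio was -0.47. With Stat5 siRNA the Klf1 signal was 1.34-fold higher than with control siRNA at 30 min and 1.33-fold at 2 h, differences of under 2 SDs that did not pass 2-fold.

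Gata1 and Nfe2 had the next lowest ratios after 2 h of IL-3, just short of 2-fold. Gata1, which drives erythroid and megakaryocyte maturation, had 405 without IL-3, 389 at 30 min and 222 at 2 h with control siRNA, and 494 at 30 min and 257 at 2 h with Stat5 siRNA. The 2 h ratio was -0.87, which is 1.82-fold lower. Its other probe set, of a kind that can cross-hybridise, ran between 101 and 178 and read 145 without IL-3 and 122 at 2 h, so it gave a smaller difference. With both probe sets counted, the Gata1 ratio at 2 h was -0.56. Nfe2 had 1114, 882 and 571 with control siRNA without IL-3, at 30 min and at 2 h, and 1149 and 857 with Stat5 siRNA at 30 min and 2 h. Its 2 h ratio was -0.96, which is 1.95-fold lower. With Stat5 siRNA Nfe2 was higher by a log2 ratio of 0.38 at 30 min and 0.59 at 2 h, and for Gata1 the ratios were 0.35 and 0.21. The other Gata1 probe set had 0.17 at 30 min and -0.02 at 2 h, where its Stat5 siRNA signal was under the floor. None of these passed 2-fold.

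The remaining factors varied little. Gata2, the factor of progenitors and mast cells, read 1827, 1682 and 1344 on the control arrays in order of time and 1777 and 1405 with Stat5 siRNA. Its signals at 2 h were the lowest in both siRNA groups, with a ratio of -0.44 against cells without IL-3, and its siRNA ratios were 0.08 and 0.06. Tal1, a basic helix-loop-helix factor, read 645, 695 and 583 on the control arrays and 626 and 718 with Stat5 siRNA. Lmo2, the bridging protein of the complex, read 174, 202 and 166 on the control arrays and 183 and 187 with Stat5 siRNA, and its other probe set stayed under the floor, between 68.2 and 114. The Tal1 and Lmo2 ranges of the siRNA groups overlapped. Their siRNA ratios had opposite signs at the different times, at -0.15 and -0.14 at 30 min and at 0.30 and 0.18 at 2 h.

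The heme synthesis enzymes showed no difference past 2-fold as genes, and their probe sets disagreed. Alad, the enzyme that joins 2 molecules of aminolevulinic acid into porphobilinogen, read 928, 812 and 703 on the control arrays in order of time and 1086 and 913 with Stat5 siRNA on U74A. The siRNA ratios there were 0.42 at 30 min and 0.38 at 2 h. The U74C probe set, which can cross-hybridise, ran the other way at 2 h, with 535 for control siRNA and 259 for Stat5 siRNA. That was 2.07-fold lower, as were by 2-fold or more 0.564% of all probe sets measured in that comparison, and with both probe sets counted the Alad ratio at 2 h was -0.34. Urod, which removes carboxyl groups from uroporphyrinogen, stayed between 201 and 212 on all 5 arrays of its U74A probe set. Its U74B probe set, which can cross-hybridise, was brighter and read 1736, 1651 and 1245 on the control arrays and 1749 and 1386 with Stat5 siRNA. The third Urod probe set and a second one of Gata2 were under the floor on every array, at 6.90 to 43.3 and 1.02 to 9.52.

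Counted over all members, IL-3 for 30 min moved 0 of 9 genes past 2-fold, where 0.711% of 8155 genes were higher and 0.343% lower. After 2 h 0 of 9 were higher and 1, Klf1, was lower, against 2.45% and 1.63% of 8294 genes. The members' median log2 ratio at 2 h was -0.40, with 8 of 9 below 0, and that of all genes was -0.03. Of all genes 54.3% had a ratio of 0.003 or less there. With Stat5 siRNA 1 of 9, Hba-a1, was higher at 30 min and 0 were lower, against 0.308% and 0.382% of all genes. At 2 h again Hba-a1 was the 1 higher and 0 were lower, against 0.504% and 0.43%. The siRNA comparisons helped choose the members, so nothing is read from those counts. The members' median siRNA ratio was 0.35 at 30 min and 0.30 at 2 h, and that of all genes was 0.00 at both times. A lower signal in bulk RNA can mean fewer cells that express a gene or less RNA per cell, which cannot be told apart.

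**Figure D3:**
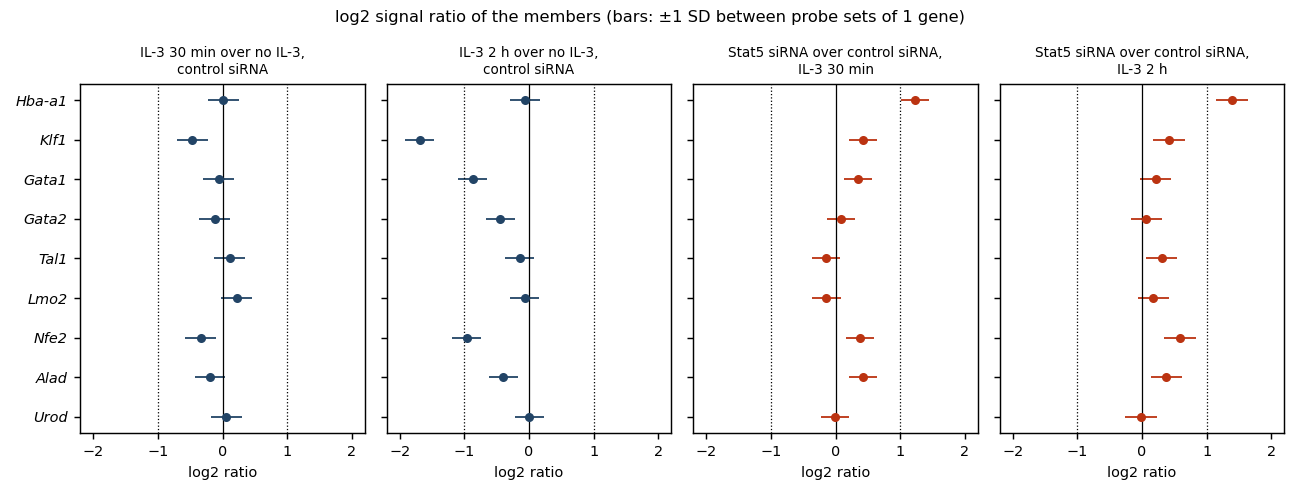
log2 signal ratio (x axis) of each member (y axis) in the IL-3 comparisons and the Stat5 siRNA comparisons; points are the value of the gene from 1 array against 1 array, bars are ±1 SD of a ratio between probe sets of 1 gene on U74A, and dotted lines mark 2-fold. Hba-a1 lies past 2-fold with Stat5 siRNA only (1.23 and 1.39), and Klf1 with IL-3 at 2 h only (-1.69).

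The course from 30 min to 2 h of IL-3 could be set side by side in the siRNA groups with no array in common. Klf1 was 2.33-fold lower at 2 h than at 30 min with control siRNA and 2.34-fold lower with Stat5 siRNA, ratios of -1.22 and -1.23. Gata1 had -0.81 and -0.95, Nfe2 -0.63 and -0.42, and Gata2 -0.32 and -0.34. Hba-a1 had -0.07 and 0.09, and Urod -0.06 in both. The largest gap between the siRNA groups was that of Tal1, -0.25 against 0.20, which is under 2 SDs of a ratio. With control siRNA 0 of 9 members were 2-fold higher and 1 lower, against 1.89% and 1.65% of all genes, and with Stat5 siRNA 0 and 1, against 1.64% and 1.19%. The lower gene was Klf1 in both.

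**Figure D4:**
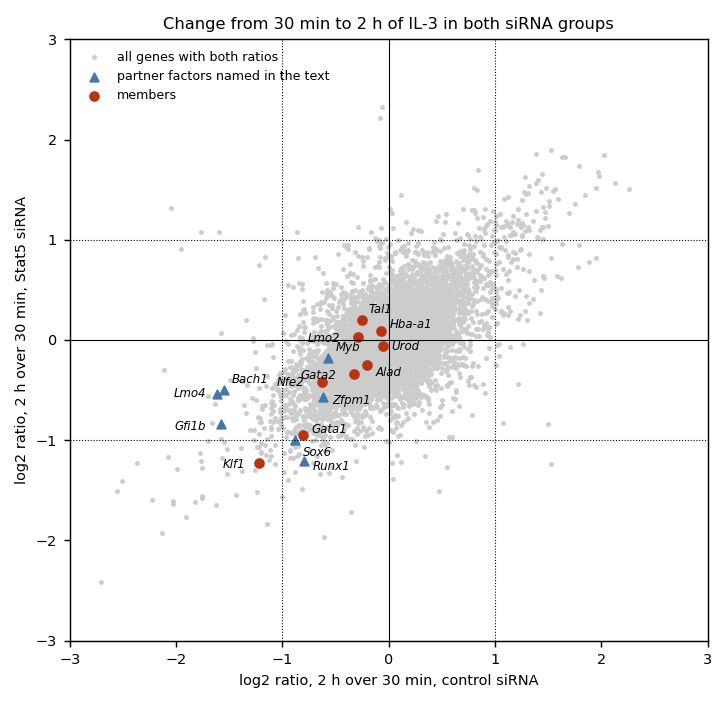
log2 signal ratio of 2 h over 30 min of IL-3 with control siRNA (x axis) and with Stat5 siRNA (y axis); grey points are the genes measured in both (4 of 7924 lie outside the axes), red points the members, blue triangles the partner factors Lmo4, Gfi1b, Bach1, Zfpm1, Runx1, Sox6 and Myb, and dotted lines 2-fold. Klf1 lies at -1.22 and -1.23, nearly the same value in both siRNA groups. Of the triangles, Lmo4, Gfi1b and Bach1 are past 2-fold only with control siRNA. Tcf3, at -1.17 and 0.41, is not marked.

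Partners of these factors were taken from a list of 24 genes, of which 19 were measured. At 30 min of IL-3 none passed 2-fold as a gene value. At 2 h 0 were higher and 3 were lower, Lmo4, Gfi1b and Bach1, and the list's median was -0.31, against 2.45% of all genes higher, 1.63% lower and a median of -0.03. With the floor doubled 1 of the list passed 2-fold. Gfi1b, a repressor needed for red cell and platelet formation, read 470, 430 and 144 on the control arrays in order of time and 373 and 208 with Stat5 siRNA, and was 3.26-fold lower at 2 h. Lmo4, a LIM-only protein related to LMO2, read 574, 490 and 160 on the control arrays and 352 and 242 with Stat5 siRNA, and was 3.59-fold lower. Bach1, a heme-sensing repressor of globin and heme oxygenase genes, read 366, 464 and 159 on the control arrays and 279 and 198 with Stat5 siRNA, and was 2.31-fold lower. Zfpm1, the cofactor FOG1 of GATA1, had a ratio of -0.55 at 2 h, Myb, a progenitor factor, of -0.50, and Sox6 of -0.83. Of the 19 ratios 13 were below 0 and 6 above, the highest those of Mafk (0.555) and Mafg (0.43). Of all genes 54.3% had a ratio of 0.003 or less. From 30 min to 2 h with control siRNA 0 of 18 were higher and 4 were lower, against 1.65% of all genes lower. These were Lmo4 (3.07-fold), Gfi1b (2.98-fold), Bach1 (2.93-fold) and Tcf3 (2.25-fold), and with the floor doubled 1 of the list passed. Tcf3 was read here only from a U74C probe set that can cross-hybridise. That probe set read 125, 279 and 124 on the control arrays in order of time. It was 2.24-fold higher at 30 min of IL-3 and at 2 h was back at the level without IL-3. The Tcf3 gene values against no IL-3 came from a U74A probe set near or under the floor, at 148, 118 and 119. From 30 min to 2 h with Stat5 siRNA, Runx1 (2.31-fold) and Sox6 (2.0-fold) were the 2 of 19 that were 2-fold or more lower, against 1.19% of all genes, and with control siRNA they had log2 ratios of -0.80 and -0.88. In the siRNA comparison at 30 min 0 of 19 passed 2-fold. At 2 h 1 of 18 was higher, Tcf3 (1.14), read from the same U74C probe set, and the median was 0.10. With the floor halved or doubled 0 passed. Tcf3 encodes E-proteins that pair with TAL1.

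Other red cell genes did not pass 2-fold in the IL-3 or siRNA comparisons. Of 22 membrane, surface and carbonic anhydrase genes 9 were measured after 2 h of IL-3, with 7 ratios below 0 and a median of -0.38. All genes had a median of -0.03, and 54.3% of them had a ratio of 0.003 or less. The lowest belonged to Dmtn (-0.78, from a U74C probe set that can cross-hybridise), which binds actin in the red cell skeleton, and Add2 (-0.74), the beta subunit of adducin. Epor, the erythropoietin receptor, read 159, 161 and 90.4 on the control arrays and 147 and 117 with Stat5 siRNA, near or under the floor. In the siRNA comparison at 2 h 8 were measured, with a median of 0.10, against 0.00 for all genes. Of the 7 other heme synthesis enzymes only 3 were measured in any comparison, Alas1, Uros and Cpox, with ratios from -0.07 to 0.30 in the siRNA comparisons and from 0.10 to 0.26 in those with IL-3 against no IL-3. Of 19 genes of heme and iron transport 14 were measured, and 0 passed 2-fold in any of these comparisons. Their median siRNA ratio was 0.06 at 30 min and 0.16 at 2 h.

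Markers of other cells were mostly under the floor. Of 15 pro-B and B lineage markers on the arrays 1, Cd79b, reached it, at 162 without IL-3 and at 92.9 to 144 in the other conditions, while Pax5, Vpreb1 and Igll1 did not. Of 17 mast and myeloid markers 2 did (Ms4a2 and Cd68), and of 10 T and NK markers 0 did. The summed signal of the pro-B list ran from 450 to 670 over the 5 conditions and that of the mast and myeloid list from 743 to 1010. Of 9 megakaryocyte markers 2 did, among them the integrin gene Itga2b, which read 3366, 3050 and 2908 on the control arrays in order of time and 4170 and 4168 with Stat5 siRNA, 1.37-fold and 1.43-fold higher at the matched times. The other, Gp9, a platelet glycoprotein gene, went the other way at 30 min, with 150 for control siRNA and 104 for Stat5 siRNA, and was under the floor on both arrays at 2 h. The part of these markers in the Hba-a1 difference was not tested.

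Interferon response genes moved in the same siRNA comparisons as Hba-a1. Of 20 such genes on the arrays 12 were measured at 30 min. Of these 7 were 2-fold or more higher with Stat5 siRNA and 0 lower. Of 13 measured at 2 h 6 were higher and 0 lower. Of all genes 0.308% and 0.504% were higher. Ccl5, Irf7, Oasl2, Isg15, Gbp3 and Rsad2, and at 2 h also Usp18, were measured only through the Stat5 siRNA array. With control siRNA the probe sets behind their gene values were under the floor, so they could not come out lower. At 30 min the genes past 2-fold were Ccl5 (at least 13.8-fold), Irf7 (at least 3.73-fold), Irf1 (2.57-fold), Oas2 (2.35-fold), Oasl2 (at least 2.33-fold), Bst2 (2.26-fold) and Oasl1 (2.14-fold). At 2 h they were Ccl5 (at least 10.3-fold), Oasl1 (3.36-fold), Oasl2 (at least 3.31-fold), Irf7 (at least 2.75-fold), Oas2 (2.53-fold) and Bst2 (2.52-fold). The counts were 3 at both times with the floor doubled, and 10 at 2 h with the floor halved. The summed signal of the list was 2918 to 3349 on the control siRNA arrays and 15770 and 13030 with Stat5 siRNA. A single Irf7 probe set on U74C that can cross-hybridise gave 9275 and 7270 of these. Without the probe sets that can cross-hybridise the sum was 1679 to 2044 on the control arrays and 6317 and 5633 with Stat5 siRNA. The siRNA targets themselves were lower, with Stat5a at 548 for control siRNA and 277 for Stat5 siRNA at 30 min on its brighter probe set and Stat5b at 500 and 166. At 2 h Stat5a was at 475 and 255, which is 1.87-fold lower, against 1.98-fold at 30 min. The dimmer Stat5a probe set was at least 2.12-fold lower at 2 h. Stat5b was at 177 and 126 at 2 h, which is 1.40-fold lower, against 3.01-fold at 30 min. In control siRNA cells Stat5b had itself gone from 536 without IL-3 to 177. Cish, an IL-3 induced inhibitor and known STAT5 target, was at 1097 and 389 at 30 min and at 1565 and 645.5 at 2 h. The part of the interferon response in the globin values was not tested.

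The genes with the pattern most like Hba-a1 were found by Pearson's r of the log2 signal over the 5 conditions, among 820 genes whose signals spanned at least 2-fold, with signals under the floor raised to it. Only probe sets with 1 symbol entered, so the joint adult beta globin and joint alpha globin probe sets could not appear. Hbb-y and Hbb-b2 spanned less than 2-fold above the floor and could not appear either. The highest were Ddit3 (0.999), a stress-response factor, Bst2 (0.994), a membrane protein that tethers viruses, the chemokine gene Ccl5 (0.992), and Oas2 (0.988) and Oasl2 (0.984), which belong to the oligoadenylate synthetase family. Ddit3 read 65.7, 85.0 and 39.6 on the control arrays and 330 and 364 with Stat5 siRNA. Ddit3, Ccl5 and Oasl2 were under the floor on all 3 control arrays, so their r and their place in the order rest partly on the floor. With signals not raised r was 0.971 for Ddit3, 0.993 for Ccl5 and 0.985 for Oasl2. With r of at least 0.95 there were 13 such genes. Among the members, r with Hba-a1 was 0.37 for Nfe2, 0.14 for Gata1 and 0.05 for Klf1. For Klf1 the highest were Gemin2 (0.997), which acts in the assembly of splicing particles, Oard1 (0.996), Gm36266 (0.994), Cep57l1 (0.994) and the replication licensing factor gene Cdt1 (0.994). With r of at least 0.95 there were 70 genes, among them Gata1 (0.97), and Nfe2 had 0.93. Arrays of 5 conditions allow many high values of r, and each r is a description with no test.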

How the data were processed

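The deposited values are linear intensity values per probe set, which the authors computed with MAS5, per the series' design text and the submitters' processing notes. The deposited arrays had trimmed means (2% cut from either end) of 150.0 to 150.1, over 15 arrays. Probe-level data and detection calls were not used here. No scan date or batch is given in the sources used. Arrays were brought to 1 trimmed mean. The floor of 119.9 is the signal that 14553 of 36701 non-control probe sets, the number the design text says passed the filters, reached on their highest array. On the arrays 30.6% to 37.4% of probe sets reached it.

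A probe set was measured in a comparison if 1 of its 2 arrays reached the floor. Lower signals were raised to the floor before the log2 ratio was taken, and a change was called at 2-fold. Gene values are medians over probe sets with 1 symbol in the platform annotation (29131 probe sets; 724 had several symbols and 6846 none), and those with a suffix for possible cross-hybridisation (_f_at, _i_at, _r_at, _x_at) entered only where a gene had no other. The spread is the SD of a ratio from pairs of probe sets of 1 gene on the same arrays. All members are named, other list genes past 2-fold with a few examples chosen after their values were seen, and the 5 genes most like Hba-a1 or Klf1. The members and lists were chosen with earlier results of these data known. The steps were tested on simulated data. Python 3.11.15, numpy 2.4.6 and pandas 2.3.3 were used. The alternatives were other scalings, floors, probe set rules and thresholds.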

Additional observations from a re-analysis of the deposited data

How the results depend on the processing

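The comparisons are given in the order IL-3 for 30 min, IL-3 for 2 h, 2 h over 30 min with control siRNA, Stat5 siRNA at 30 min, Stat5 siRNA at 2 h, and 2 h over 30 min with Stat5 siRNA. All genes past 2-fold in either direction numbered 86, 338, 292, 56, 76 and 233. They numbered 209, 580, 492, 161, 225 and 393 with the floor halved, 45, 181, 161, 28, 30 and 130 with the floor doubled, and 242, 679, 573, 198, 267 and 481 without raising signals to it. At 1.5-fold they numbered 435, 1344, 1209, 357, 530 and 1042. With both arrays required at the floor they numbered 57 for IL-3 at 30 min and 50 for Stat5 siRNA at 2 h, and on U74A and U74B only 35, 24 and 42 for IL-3 at 30 min and Stat5 siRNA at 30 min and 2 h. Of 132 alternative counts of members past the threshold 7 moved. At 1.5-fold Klf1, Gata1 and Nfe2 made 3 lower at 2 h of IL-3, and also 3 from 30 min to 2 h with control siRNA. With Stat5 siRNA 2 were lower from 30 min to 2 h, and 2 were higher at 2 h. With the floor doubled, which lies above the Klf1 signal at 2 h, the Klf1 ratio was -1.38 at 2 h, and from 30 min to 2 h with control siRNA it was -0.91, which left 0 members lower. With the shared alpha globin probe sets counted, the Hba-a1 ratios of 0.85 and 0.996 left 0 members higher at both times. Of 486 alternative ratios of members 473 moved by less than the spread between probe sets with the call unchanged, and so did all 60 medians of the members. Counts in the other lists moved in 41 of 600 cases. Without replicates the spread between cultures is unknown. Probe sets under the floor, among them those of 3 of the 6 other heme synthesis enzymes on the arrays, give no ratio.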
